A study of Mus musculus with 12 samples.

Results

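The genes described here are 10 acute phase genes of the mouse liver, chosen by symbol: the serum amyloid A genes Saa1, Saa2, Saa3 and Saa4, the orosomucoid genes Orm1, Orm2 and Orm3, the pentraxin genes Crp and Apcs, and the lipocalin gene Lcn2. They are 10 of the 55450 gene identifiers in the deposited tables, and all 10 passed the filter on low counts in both comparisons below. RNA was sequenced from primary hepatocytes of the mouse, in 4 groups with 3 libraries apiece and 12 libraries in all. KO hepatocytes (Cebpa ΔAlb) came from mice that lost floxed Cebpa through a Cre recombinase driven by the albumin promoter, which is active in hepatocytes, and WT hepatocytes carried the same floxed alleles (Cebpa fl/fl) without that deletion. OE hepatocytes received an adenovirus encoding mouse Cebpa (Ad-m-Cebpa) and GFP hepatocytes received an adenovirus encoding green fluorescent protein (Ad-GFP), so both of these groups carry a virus and the KO and WT groups do not. Each library is labelled with a biological replicate number, with no word on whether these are separate mice or cultures, so p values measure only the spread between libraries, which may be technical. The strain and age of the mice, the genotype of the hepatocytes given virus and the duration of the adenovirus exposure are not given in the labels.

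The acute phase response is the shift in liver secretion that follows infection, injury or surgery. Interleukin-1, tumor necrosis factor and interleukin-6 reach the hepatocyte and act through NF-kB, STAT3 and the C/EBP factors, and the liver then secretes proteins that bind lipids, microbial surfaces or iron carriers. CEBPA is the C/EBP factor most closely tied to the differentiated adult hepatocyte, while CEBPB and CEBPD are the family members best known from the acute phase.

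Total counts per library were 20160081 to 23304230, and the libraries differed little in depth. Cebpa itself stood at 0.963, 0.257 and 0.164 CPM (counts scaled to library size) in KO libraries 1 to 3, against 309, 229 and 290 CPM in WT. It stood at 13292, 13652 and 14079 CPM in OE, against 48.0, 50.6 and 54.3 CPM in GFP, where the OE counts also hold reads from the virus. The labels therefore matched the levels of the targeted gene in all 12 libraries. The summed level of 9 hepatocyte markers was 108944 to 134617 CPM in KO, 99843 to 100630 CPM in WT, 9279 to 9722 CPM in OE and 21280 to 21820 CPM in GFP. Most of each sum was albumin (Alb), and without it the sum was 18856 to 31758 CPM in KO, 24807 to 27372 CPM in WT, 1891 to 1936 CPM in OE and 3593 to 4017 CPM in GFP. Of the 9 markers 0 were called in KO against WT, against 1.71% of all genes. Of their log2 fold changes there, 3 were above 0 and 6 below, with a median of -0.06. In OE against GFP 8 of the 9 were called lower, against 42.7% of all genes. The other 1, Cps1 of the urea cycle, was called higher, against 43.9% of all genes. Fewer cells of a type and less RNA per cell cannot be told apart in such bulk samples. The biological coefficient of variation was 20.4% over KO and WT and 4.04% over OE and GFP, so small changes were detectable only in the adenovirus experiment. The KO and WT libraries did not behave as uniform groups for the acute phase genes, as described below: KO3 stood apart from KO1 and KO2, and WT3 from WT1 and WT2.

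The 4 serum amyloid A genes lie in a cluster of 42.3 kb on chromosome 7 (46711998 to 46754313, mm10) in the order Saa3, Saa4, Saa1, Saa2, with Saa2 on the plus strand and the other genes on the minus strand. The orosomucoid genes Orm1, Orm3 and Orm2 lie in this order on the plus strand of chromosome 4 (63344560 to 63365878). Crp (chromosome 1, 172698055 to 172833031, plus strand) and Apcs (chromosome 1, 172893961 to 172895041, minus strand) are neighbours, and the annotated span of Crp also holds a processed pseudogene, Gm38051, on the same strand. Lcn2 lies on the minus strand of chromosome 2 (32384633 to 32388252). All are annotated as protein-coding.

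Promoter sequences are shown because CEBPA binds DNA and the genes below differ in their response to it. Of the 10 genes, 9 had an entry in the RefSeq promoter table (GRCm38.p6), the exception being Orm1. The 250 bases before each start site were searched on both strands for the letters TTGCNNAA, a C/EBP core motif. They were found for 7 of the 9 genes, against 9.56% of 32851 promoters of the same length. Each sequence below covers bases -200 to -61 from the RefSeq start, with the match in capitals. Saa1 and Saa2 are shown as a near-identical pair. Saa3 is shown because its match lies nearest to the start among the 3 serum amyloid A genes printed. Saa4, not printed, has a nearer match at -52 to -45. Orm2 and Orm3 are shown as a pair that moved in opposite directions in OE. Crp and Apcs are the 2 genes with no match and the largest changes in OE.
Saa1 (chr7:46743041-46743180, minus strand): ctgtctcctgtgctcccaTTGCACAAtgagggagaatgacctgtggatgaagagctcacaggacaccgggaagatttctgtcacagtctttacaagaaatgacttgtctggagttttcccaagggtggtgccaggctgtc
Saa2 (chr7:46751633-46751772, plus strand): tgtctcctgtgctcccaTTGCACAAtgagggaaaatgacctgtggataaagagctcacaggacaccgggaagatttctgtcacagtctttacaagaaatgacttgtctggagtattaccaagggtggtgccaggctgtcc
Saa3 (chr7:46715737-46715876, minus strand): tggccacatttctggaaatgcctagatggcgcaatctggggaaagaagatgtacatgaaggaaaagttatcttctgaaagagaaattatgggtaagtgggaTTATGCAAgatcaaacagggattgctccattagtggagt
Orm2 (chr4:63362249-63362388, plus strand): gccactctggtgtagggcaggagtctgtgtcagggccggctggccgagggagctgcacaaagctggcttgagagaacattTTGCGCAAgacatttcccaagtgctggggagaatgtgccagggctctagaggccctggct
Orm3 (chr4:63355958-63356097, plus strand): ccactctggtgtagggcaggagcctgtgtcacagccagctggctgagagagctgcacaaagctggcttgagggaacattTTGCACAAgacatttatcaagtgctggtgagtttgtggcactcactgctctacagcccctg
Crp (chr1:172697856-172697995, plus strand): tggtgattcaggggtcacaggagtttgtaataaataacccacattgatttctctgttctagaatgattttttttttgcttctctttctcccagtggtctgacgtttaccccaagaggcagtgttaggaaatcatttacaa
Apcs (chr1:172895115-172895254, minus strand): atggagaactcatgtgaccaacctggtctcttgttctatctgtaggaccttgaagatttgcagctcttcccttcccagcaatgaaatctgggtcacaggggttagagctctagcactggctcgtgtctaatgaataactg

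The match ran from base -182 to -175 in Saa1, from -183 to -176 in Saa2 and from -99 to -92 on the opposite strand in Saa3. Orm2 had it from -120 to -113, where the letters read the same on both strands, and Orm3 from -121 to -114. Saa4 had matches at -245 to -238 and at -52 to -45, and Lcn2 had a match at -216 to -209, all outside the stretch printed. The Saa1 and Saa2 promoters were identical at 94.8% of aligned positions over the 250 bases, and those of Orm2 and Orm3 at 85.5%. A STAT motif (TTCNNNGAA, both strands) occurred in 1 of the 9 promoters, that of Apcs, against 7.02% of all promoters, and an NF-kB motif occurred in 0 of the 9, against 7.25%. A match is a run of letters and not a measured binding site, and no match says only that these letters are absent from this window.

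The likeness of the transcripts bears on the values of close relatives. The Saa1 and Saa2 transcripts were identical at 93.9% of aligned positions, and those of Orm1 and Orm2 at 91.0%. Of the 50-base windows of a transcript, 14.8% were shared with a relative in Saa1, 13.3% in Saa2, 20.4% in Orm1, 21.8% in Orm2, 3.59% in Orm3, 1.78% in Saa3 and 0% in Saa4. The quantification divides reads that fit several genes by estimation, so the split of reads between Saa1 and Saa2, and among the Orm genes, is less certain than their sums.

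In KO against WT hepatocytes, the serum amyloid A genes Saa1, Saa2 and Saa3 had higher mean levels in KO, Orm1 had a lower mean level, and none of the 10 genes passed the test. The levels inside each group spanned up to 267-fold (Lcn2 in KO), while the largest fitted difference between the groups, that of Saa3, was 26.6-fold. In edgeR's quasi-likelihood test with Benjamini-Hochberg adjustment over 11846 genes, 0 of the 10 genes reached an adjusted p under 0.05, while 1.71% of all genes did. At an unadjusted p under 0.05 there were 3 of the 10, against 13.9% of all genes, DESeq2 called 1 and limma on TPM called 0. The median log2 fold change of the 10 genes was 1.14, against 0.007 over all genes tested. The ranges of KO and WT did not overlap for 1 of the 10 genes, Orm1, against 20.0% of all genes.

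**Figure D1:**
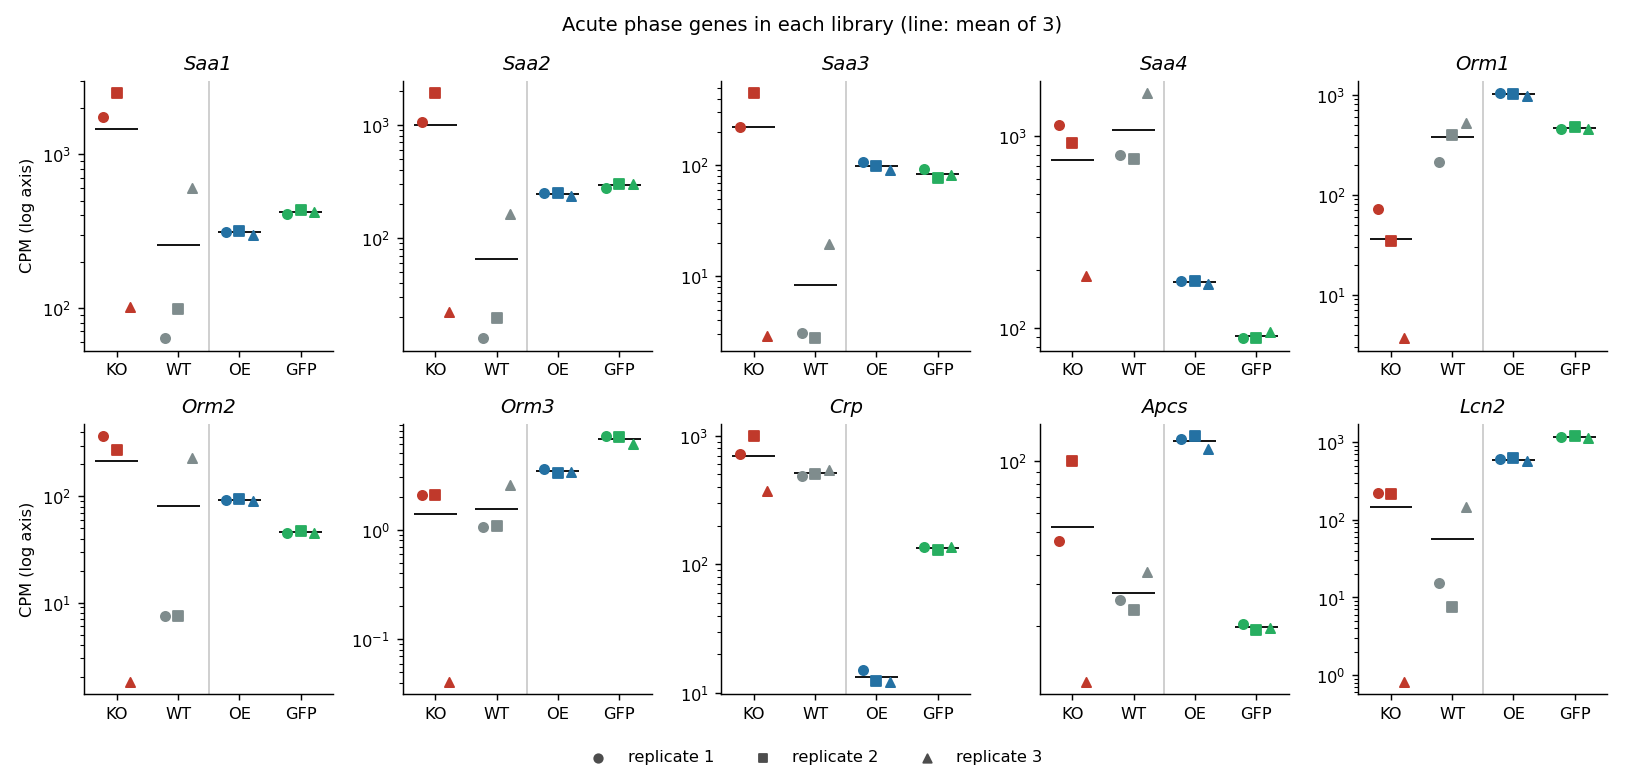
Level of each acute phase gene in CPM (vertical, log axis) in the KO, WT, OE and GFP libraries (horizontal), where each symbol is 1 library, its shape gives the replicate number and the line is the mean of 3. CPM was scaled within KO and WT and within OE and GFP, KO3 lies lowest of the KO libraries and WT3 highest of the WT libraries in all 10 panels, and the OE and GFP libraries lie close together within each group.

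Saa1 and Saa2 encode the acute phase forms of serum amyloid A, small apolipoproteins that circulate on high-density lipoprotein. Saa1 stood at 1759, 2505 and 101 CPM in KO libraries 1 to 3, against 63.1, 97.7 and 606 CPM in WT libraries 1 to 3. KO1 and KO2 lay above every WT library, while KO3 lay between WT2 and WT3. The log2 fold change was 2.51 ± 1.23 (SE, n = 3 each, edgeR adjusted p = 0.422). Saa2 stood at 1060, 1896 and 22.5 CPM in KO, against 13.0, 19.6 and 164 CPM in WT, with the same order of libraries and a log2 fold change of 3.92 ± 1.57 (edgeR adjusted p = 0.333).

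Saa3 is made in the liver and also in macrophages and fat of the mouse. It stood at 222, 446 and 2.87 CPM in KO, against 3.07, 2.75 and 19.3 CPM in WT. KO3 was inside the WT range, and KO1 and KO2 were more than 10-fold above the highest WT library. The log2 fold change was 4.73 ± 1.60 (edgeR adjusted p = 0.253), and without KO3 it was 5.31 with an edgeR adjusted p of 0.0361. In a fit of all 12 libraries, which shares the spread with the more uniform OE and GFP libraries, the edgeR adjusted p was 0.0382.

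Saa4 is the constitutive member of the family, which is made without an acute phase stimulus. It stood at 1135, 915 and 187 CPM in KO, against 796, 761 and 1664 CPM in WT, and the ranges overlapped. Its log2 fold change was -0.53 ± 0.62 (edgeR adjusted p = 0.735). Saa4 spanned 6.08-fold within KO, while Saa1, Saa2 and Saa3 spanned 24.7-fold, 84.3-fold and 155-fold.

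The orosomucoids, or alpha-1-acid glycoproteins, are plasma lipocalins that carry drugs and lipids. Orm1 stood at 71.6, 34.1 and 3.65 CPM in KO, against 214, 394 and 519 CPM in WT, and every KO library lay below every WT library. The log2 fold change was -3.37 ± 0.92 (edgeR adjusted p = 0.161). Orm1 was called by DESeq2 (adjusted p = 0.0294), by edgeR in the fit of all 12 libraries (adjusted p = 0.0143) and by edgeR without KO3 (log2 fold change -2.83, adjusted p = 0.0364). With the 3 Orm genes summed the log2 fold change was -0.87 (edgeR adjusted p = 0.763).

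Orm2 stood at 365, 270 and 1.81 CPM in KO, against 7.51, 7.56 and 228 CPM in WT. KO1 and KO2 were above all WT libraries and KO3 was below them all, so that the ranges overlapped in full. The log2 fold change was 1.39 ± 1.74 (edgeR adjusted p = 0.749). Orm3 was near the limit of detection, with 43, 40 and 1 counts in KO, against 23, 25 and 59 counts in WT, and a log2 fold change of -0.18 ± 0.91 (edgeR adjusted p = 0.945) that turned positive without WT3 or without KO3.

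The proportion of Orm2 to Orm1 was also compared. The ratio of Orm2 to Orm1 in TPM, a share of all transcripts that is corrected for transcript length, was 5.09, 7.92 and 0.488 in KO, against 0.0351, 0.0192 and 0.440 in WT. Orm2 was therefore the more abundant of the pair in KO1 and KO2 only, among all 12 libraries. The ratios of KO and WT did not overlap, although KO3 and WT3 were close. The mean log2 ratio was 1.43 ± 2.16 in KO and -3.91 ± 2.40 in WT (SD, n = 3 each), a difference of 5.34 with an exact 2-sided permutation p of 0.1, the smallest that 3 against 3 can give.

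**Figure D2:**
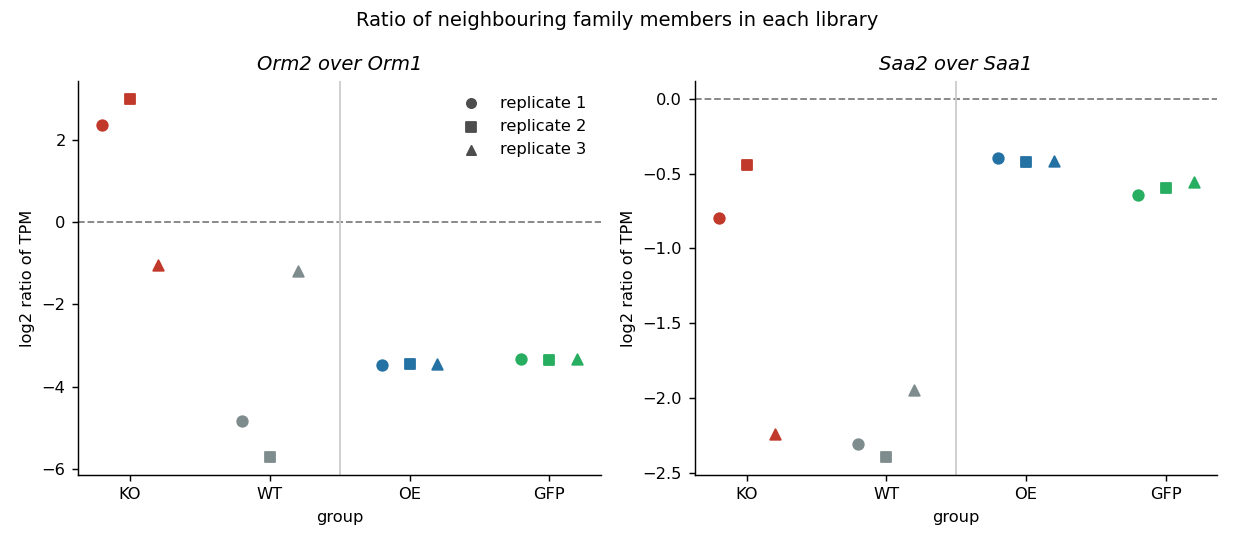
Log2 ratio of Orm2 to Orm1 (left) and of Saa2 to Saa1 (right) in TPM (vertical) in the KO, WT, OE and GFP libraries (horizontal), where each symbol is 1 library, its shape gives the replicate number and the dashed line marks equal levels. Orm2 exceeded Orm1 in KO1 and KO2, and the Saa2 ratio of KO3 lay within the WT range.

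The ratio of Saa2 to Saa1 was 0.577, 0.738 and 0.211 in KO, against 0.202, 0.190 and 0.259 in WT. KO1 and KO2 were above the WT range and KO3 was inside it, and the exact permutation p was 0.2. In the adenovirus experiment the same ratio was 0.759, 0.746 and 0.751 in OE, against 0.641, 0.661 and 0.679 in GFP. These ranges in OE and GFP did not overlap, and the exact permutation p was 0.1, again the smallest possible.

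Crp and Apcs encode the short pentraxins C-reactive protein and serum amyloid P component, which bind phosphocholine and other ligands on microbes and dying cells. In the mouse, serum amyloid P is the major acute phase pentraxin and C-reactive protein changes little. Crp stood at 720, 985 and 371 CPM in KO, against 484, 500 and 543 CPM in WT, with a log2 fold change of 0.44 ± 0.32 (edgeR adjusted p = 0.565). It had the narrowest span of the 10 genes in both genotypes, 2.66-fold in KO and 1.12-fold in WT. Apcs stood at 45.8, 99.9 and 11.6 CPM in KO, against 25.7, 23.4 and 33.6 CPM in WT, with a log2 fold change of 0.92 ± 0.65 (edgeR adjusted p = 0.555). For both pentraxins KO1 and KO2 lay above every WT library and KO3 below every one.

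Lcn2 encodes lipocalin 2, which binds bacterial siderophores and so withholds iron, and is made by stressed hepatocytes as well as by neutrophils. It stood at 219, 214 and 0.821 CPM in KO, against 15.5, 7.56 and 146 CPM in WT. The KO range enclosed the whole WT range, and 20 counts in KO3 stood against 4553 and 4168 in KO1 and KO2. The log2 fold change was 1.36 ± 1.59 (edgeR adjusted p = 0.732).

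The split inside each genotype was shared by all 10 genes. KO1 and KO2 were both above KO3 for 10 of the 10, against 35.1% of all genes, and by over 2-fold for 9 of the 10, against 2.70% of all genes. WT3 was above both WT1 and WT2 for 10 of the 10, against 34.7% of all genes, and by over 2-fold for 7 of the 10, against 1.02%. This split was seen in the values first and is given as a description.

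**Figure D3:**
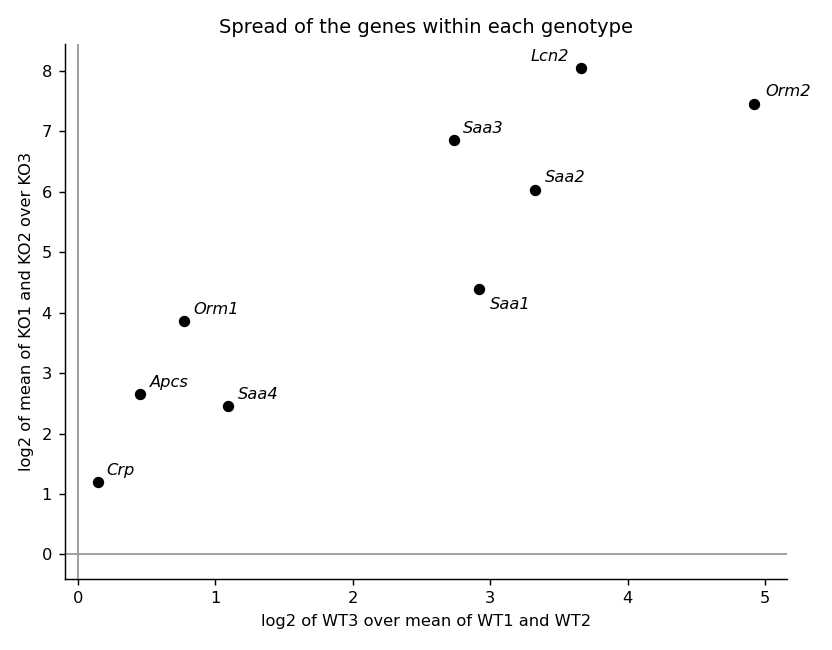
Log2 ratio of the mean of KO1 and KO2 to KO3 (vertical) against log2 ratio of WT3 to the mean of WT1 and WT2 (horizontal) from CPM, where each point is 1 acute phase gene. Orm3 is left out because KO3 held 1 count of it, all other genes lie above 0 on both axes, Crp lies lowest on both, Lcn2 lies highest on the vertical axis and Orm2 farthest to the right.

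The genes differed in how far they spread. The mean of KO1 and KO2 was 264-fold above KO3 for Lcn2, 176-fold for Orm2 and 116-fold for Saa3, but 5.49-fold for Saa4 and 2.30-fold for Crp. WT3 was 30.3-fold above the mean of WT1 and WT2 for Orm2, 12.6-fold for Lcn2 and 7.54-fold for Saa1, but 1.37-fold for Apcs and 1.10-fold for Crp. Lcn2 and Orm2 thus spread far in both genotypes, and Crp spread little in either.

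Other genes of the response had the same split. Of 23 other positive acute phase genes, 21 were tested in KO against WT. KO1 and KO2 were above KO3 for 21 of the 21, against 35.1% of all genes. WT3 was above WT1 and WT2 for 21 of the 21, against 34.7% of all genes. Hp, which encodes the hemoglobin carrier haptoglobin, stood at 9359, 10570 and 3012 CPM in KO, against 3355, 3803 and 8811 CPM in WT. Mt2, a metallothionein, stood at 460, 587 and 21.4 CPM in KO, against 36.8, 27.2 and 125 CPM in WT. Of these 21 genes, 0 passed the edgeR test, against 1.71% of all genes. An unadjusted p under 0.05 was reached by 2, against 13.9% of all genes, and the median log2 fold change of the 21 was 0.51. Among 11 negative acute phase genes, KO1 and KO2 were above KO3 for 6, against 35.1% of all genes, and by over 2-fold for 0. WT3 was above WT1 and WT2 for 5, against 34.7% of all genes, and by over 2-fold for 0. Transferrin (Trf) had the split in both genotypes, at 22333, 21493 and 11726 CPM in KO, against 12355, 13558 and 19473 CPM in WT. Albumin had it in KO alone, at 102859, 100581 and 90088 CPM, against 74170, 75823 and 72471 CPM in WT.

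Macrophage markers moved with the acute phase genes. All 11 tested markers of 13 listed were above KO3 in KO1 and KO2, and above WT1 and WT2 in WT3. Of all genes, 35.1% were above KO3 in KO1 and KO2 (2.70% by over 2-fold), and 34.7% were highest in WT3 within WT. Their summed level was 44.2, 48.6 and 14.5 CPM in KO, against 4.03, 6.45 and 24.6 CPM in WT. Clec4f, a marker of Kupffer cells, the macrophages of the liver, stood at 8.66, 7.87 and 2.59 CPM in KO, against 0.962, 1.16 and 5.39 CPM in WT. Endothelial and stellate cell markers had the same split in part. Hepatocyte markers had it in KO, where KO1 and KO2 were above KO3 for 7 of 9 (by over 2-fold for 0). WT3 was highest in WT for 3 of these 9. Endothelial markers summed to 29.4, 29.6 and 12.6 CPM in KO, against 12.4, 17.6 and 21.1 CPM in WT, and of 8 tested KO1 and KO2 were above KO3 for 7 (by over 2-fold for 5) and WT3 was highest in WT for 6. Stellate cell markers summed to 21.7, 22.3 and 14.8 CPM in KO, against 5.17, 5.16 and 10.6 CPM in WT. Most of that sum was Reln, at 15.6, 15.3 and 10.4 CPM in KO, against 3.75, 3.61 and 5.73 CPM in WT. Of 4 tested among 9 listed, KO1 and KO2 were above KO3 for 3 and WT3 was highest in WT for 4. Of the 4 stellate cell markers Reln was called higher in KO (log2 fold change 1.65 ± 0.24, edgeR adjusted p = 0.0270). Of the macrophage and endothelial markers 0 were called, against 1.71% of all genes. The part of these cells in the levels of the acute phase genes was not tested. Neutrophil markers summed to 0.0411 to 0.617 CPM in KO, against 0 to 0.171 CPM in WT, and the granulocyte markers Ly6g and Mpo were at 0 in every KO and WT library.

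Regulators of the response were also examined in KO. Of 18 transcription factors and feedback genes, 1 was called higher in KO, Cebpg (log2 fold change 1.36, edgeR adjusted p = 0.0146). The deleted Cebpa was the 1 called lower. Of all genes, 0.692% were called higher and 1.02% lower. At an unadjusted edgeR p under 0.05 there were 7 of the 18, against 13.9% of all genes. The median log2 fold change of the 18 was 0.60, against 0.007 over all genes tested. The split was present here too. KO1 and KO2 were above KO3 for 17 of the 18, against 35.1% of all genes, and by over 2-fold for 8, against 2.70%. WT3 was highest in WT for 14, against 34.7% of all genes. Cebpb, the family member best known from the acute phase, stood at 210, 248 and 101 CPM in KO, against 79.4, 131 and 144 CPM in WT. Of 10 cytokine and receptor genes tested, 0 were called, against 1.71% of all genes, and 2 had an unadjusted edgeR p under 0.05. The lowest p among them belonged to Tlr2, a receptor for bacterial lipopeptides, which stood at 39.5, 145 and 0.944 CPM in KO, against 0.229, 0.387 and 2.65 CPM in WT (edgeR adjusted p = 0.182).

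In OE against GFP hepatocytes all 10 genes passed the test, and they were divided between both directions. Apcs, Orm1, Orm2, Saa4 and Saa3 were higher in OE, while Crp, Orm3, Lcn2, Saa1 and Saa2 were lower, although Saa2 was 0.07 higher on the log2 scale in TPM, without passing limma's test. Called genes made up 86.6% of the 14889 tested, with 43.9% higher and 42.7% lower, so a call for all 10 is near what most genes did. A call with a change above 2-fold was reached by 4 of the 10, Apcs, Orm1, Orm2 and Crp, against 42.0% of all genes. The ranges of OE and GFP did not overlap for 9 of the 10 genes, against 87.0% of all genes. The median log2 fold change of the 10 was -0.01, against 0.005 over all genes.

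**Figure D4:**
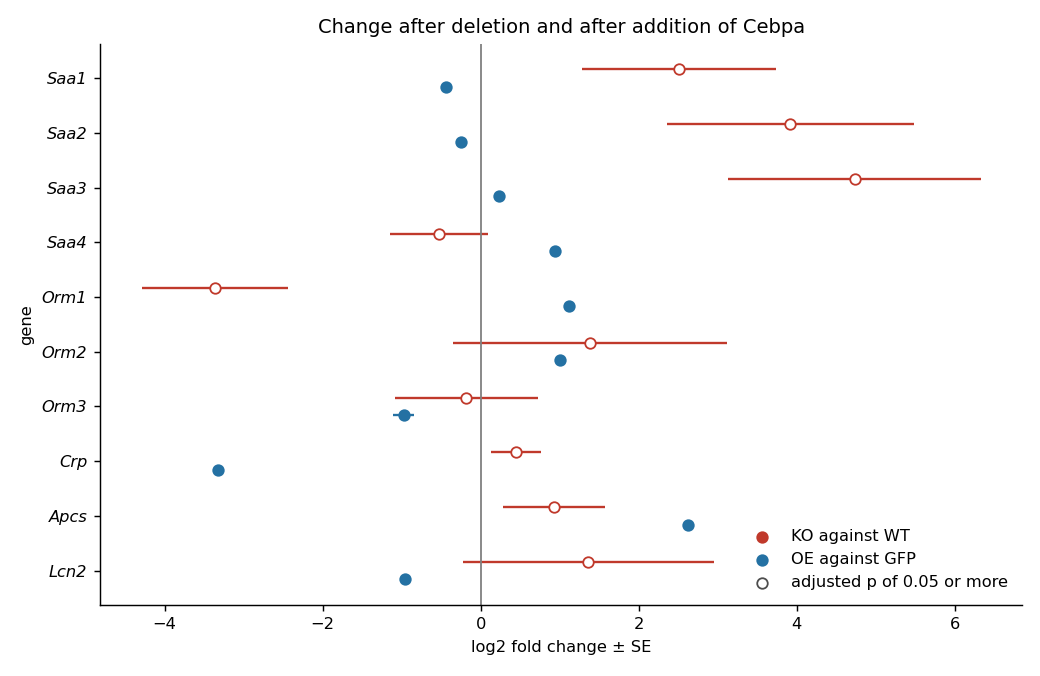
Log2 fold change ± SE (horizontal) of each acute phase gene (vertical) in KO against WT and in OE against GFP, from edgeR on 3 libraries a group, where filled points have an adjusted p under 0.05. No KO point is filled, all OE points are filled, and Apcs and Crp have the largest changes in OE. Saa2 lies below 0 in OE here and above 0 in TPM.

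The pentraxins had the largest changes and went opposite ways. Apcs stood at 124, 127 and 112 CPM in OE, against 20.3, 19.2 and 19.6 CPM in GFP. Its log2 fold change of 2.62 ± 0.05 (SE, n = 3 each, edgeR adjusted p = 4.49e-15) is 6.15-fold higher. Crp stood at 15.1, 12.4 and 12.3 CPM in OE, against 136, 129 and 136 CPM in GFP. Its log2 fold change of -3.33 ± 0.06 (edgeR adjusted p = 1.13e-15) is 10.1-fold lower. The neighbouring genes Apcs and Crp, neither with the C/EBP letters in the window searched, were the only 2 of the 10 called in the fit of all 12 libraries, and the cause of the lost calls was not tested.

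Among the orosomucoids, Orm1 and Orm2 were higher in OE and Orm3 was lower. Orm1 stood at 1035, 1023 and 978 CPM in OE, against 459, 479 and 456 CPM in GFP (log2 fold change 1.12 ± 0.03, edgeR adjusted p = 3.22e-13). Orm2 stood at 92.8, 93.9 and 90.1 CPM in OE, against 45.6, 46.8 and 45.6 CPM in GFP (log2 fold change 1.00 ± 0.04, edgeR adjusted p = 2.14e-12). The OE and GFP groups were far apart for both genes. The ratio of Orm2 to Orm1 stayed in a narrow band, 0.0896 to 0.0922 in OE, against 0.0978 to 0.0999 in GFP. Orm3 stood at 3.59, 3.28 and 3.34 CPM in OE, against 7.06, 7.05 and 6.01 CPM in GFP (log2 fold change -0.98 ± 0.13, edgeR adjusted p = 5.29e-06), at 71 to 87 counts a library in OE, and the sum of the 3 genes was higher in OE (log2 fold change 1.10).

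The serum amyloid A genes changed less. Saa4 stood at 176, 176 and 171 CPM in OE, against 89.0, 88.7 and 95.3 CPM in GFP (log2 fold change 0.94 ± 0.03, edgeR adjusted p = 1.44e-12). Saa1 stood at 313, 318 and 299 CPM in OE, against 409, 431 and 419 CPM in GFP (log2 fold change -0.44 ± 0.03, edgeR adjusted p = 9.80e-09). Saa4 was thus higher and Saa1 lower in OE, with no overlap in either case, as for 87.0% of all genes. Saa2 stood at 250.002, 251.275 and 236 CPM in OE, against 277, 299.9 and 301 CPM in GFP (log2 fold change -0.25 ± 0.04, edgeR adjusted p = 1.91e-05). In TPM the Saa2 values were 1012, 1016 and 978 in OE, against 892, 986 and 988 in GFP, and these ranges overlapped. Saa3 stood at 106, 98.3 and 90.8 CPM in OE, against 93.2, 76.9 and 82.5 CPM in GFP (log2 fold change 0.23 ± 0.06, edgeR adjusted p = 0.00419), and it was the only one of the 10 whose CPM ranges overlapped.

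Lcn2 stood at 602, 628 and 569 CPM in OE, against 1172, 1191 and 1146 CPM in GFP. The groups were apart, with a log2 fold change of -0.96 ± 0.04 (edgeR adjusted p = 6.16e-12). Neutrophil markers, by contrast, summed to 667, 654 and 570 CPM in OE, against 0.596, 0.329 and 0.411 CPM in GFP. Most of that sum was S100a8 (201 to 239 CPM in OE) and S100a9 (324 to 381 CPM in OE), which encode the subunits of calprotectin, and Ly6g and Mpo were at 0 in every OE and GFP library. Macrophage markers summed to 107 to 120 CPM in OE, against 126 to 139 CPM in GFP, of which Cd68 made up 103 to 116 CPM in OE, against 124 to 137 CPM in GFP. Without Cd68 the sum was higher in OE, at 3.325 to 4.003 CPM, against 1.24 to 1.90 CPM in GFP. Of the 13 macrophage markers 2 were tested here. Csf1r, a receptor of macrophages, stood at 1.07, 1.17 and 1.32 CPM in OE, against 0.199, 0.282 and 0.411 CPM in GFP. It passed the filter through OE alone, so its test result is not given. Adgre1 and Clec4f were at 0 in GFP and at most at 0.188 CPM in OE. The part of these genes in the change of Lcn2 was not tested.

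Changes in other genes of the response were also mixed in OE. Of 22 other positive acute phase genes tested, 8 were higher and 13 lower, with a median log2 fold change of -0.97. Among all genes 43.9% were called higher and 42.7% lower. The lowest p values belonged to Mt2 (log2 fold change -2.32), Mt1 (-2.51), Itih3 (-1.93) and C4b (-2.08), all lower in OE. The fibrinogen genes Fga and Fgg were higher (0.61 and 0.82), as was C3 (0.70). Of 11 negative acute phase genes, 2 were higher and 8 lower, with a median of -1.16, and Ahsg, which encodes fetuin A, had a log2 fold change of -3.01.

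Of 13 cytokine and receptor genes tested, 9 were higher and 4 lower in OE, against 43.9% and 42.7% of all genes. The 9 include Il6, at 0.825, 0.629 and 0.940 CPM in OE, against 0 CPM in every GFP library. Il6 passed the filter through OE alone, so its direction was fixed in advance. Il1rap, the accessory chain of the interleukin-1 receptor, had a log2 fold change of 4.06 ± 0.05, at 250, 232 and 245 CPM in OE, against 12.9, 16.1 and 14.7 CPM in GFP. Il6st, the shared gp130 chain of the interleukin-6 family receptors, was higher by 1.79, Osmr by 2.48 and Lifr by 1.38 on the log2 scale. Among 18 transcription factors and feedback genes 8 were higher, such as Stat3 (1.59) and the glucocorticoid receptor Nr3c1 (1.29), and 10 lower, such as Hnf4a (-2.28). Fpr2, a receptor for serum amyloid A on leukocytes, was detected at 0.867, 0.764 and 0.705 CPM in OE, against 0 CPM in all 3 GFP libraries, and passed the filter through OE alone. Scarb1, the lipoprotein receptor SR-BI, had a log2 fold change of -0.36. All of these passed the edgeR test, although for Il6 and Fpr2 the direction was fixed by the filter.

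The response to added Cebpa was compared with the response to its deletion by testing the difference of the log2 fold changes, OE against GFP less KO against WT, in 1 fit of all 12 libraries. It passed for 4 of the 10 genes, against 54.1% of all genes, with 1 higher, against 25.9%, and 3 lower, against 28.1%. The difference was -3.74 ± 0.36 for Crp (edgeR adjusted p = 4.10e-06), 4.52 ± 0.96 for Orm1 (0.00175), -4.46 ± 1.55 for Saa3 (0.0290) and -4.13 ± 1.60 for Saa2 (0.0460), where the values in parentheses are adjusted p. Each gene had a single dispersion in this fit, although the spread of the experiments differed. Crp kept its call under all 21 alternatives of the processing, Orm1 under 20, Saa3 under 12 and Saa2 under 6. Of the other 6 genes, Apcs passed under 8 of its alternatives, Saa4 under 5, Saa1 and Lcn2 under 2 each, Orm3 under 1 and Orm2 under 0. Leaving out KO3 alone took the count to 9 of the 10, and leaving out WT1, WT2, OE1, OE2 or OE3 took it to 2. The share of all genes called in each of these fits is not given here, so these counts are not read as particular to the 10 genes.

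For Crp the log2 fold change was -3.33 in OE against GFP and 0.44 in KO against WT, where it did not pass. Orm1 was higher in OE than in GFP in every library and lower in KO than in WT in every library. For Saa3 and Saa2 the KO value is the larger part of the difference and carries the wide spread of KO and WT. The 6 other genes did not pass, with differences of 1.74 ± 0.71 for Apcs, 1.49 ± 0.69 for Saa4, -2.91 ± 1.31 for Saa1, -2.29 ± 1.71 for Lcn2, -0.74 ± 0.85 for Orm3 and -0.35 ± 1.86 for Orm2.

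Summed over the 10 genes, acute phase transcripts took a share of all TPM that differed more between libraries of a genotype than between the adenovirus groups. The share was 1.18%, 1.62% and 0.0898% in KO, against 0.187%, 0.225% and 0.634% in WT. It was 0.832%, 0.836% and 0.800% in OE, against 0.648%, 0.675% and 0.660% in GFP. KO2 held the highest share of all 12 libraries and KO3 the lowest.

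**Figure D5:**
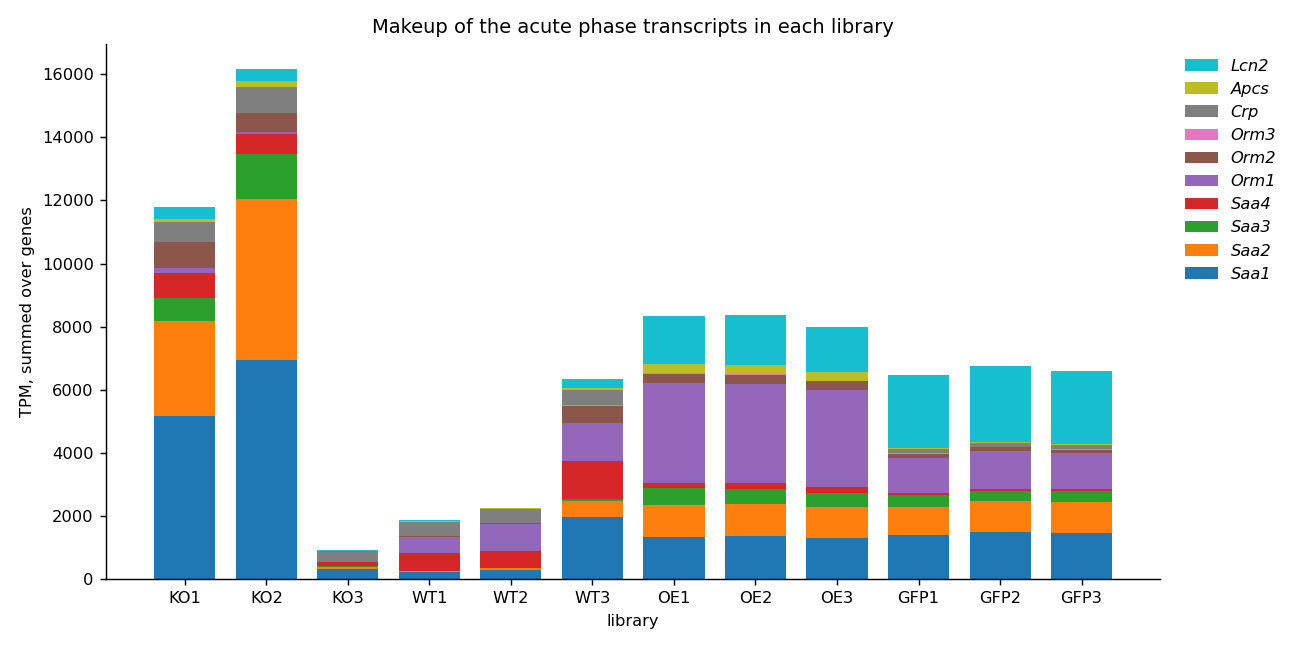
Sum of the TPM of the 10 acute phase genes (vertical) in each of the 12 libraries (horizontal), stacked by gene. The KO1 and KO2 bars are the tallest and mostly Saa1 and Saa2, the KO3 bar is the shortest, and the OE and GFP bars are led by Orm1 and Lcn2.

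The leading gene changed with the group. Saa1 held 43.9% and 42.9% of the sum in KO1 and KO2, while Crp held 37.1% in KO3. In WT the leading genes were Saa4 in WT1 (30.9%), Orm1 in WT2 (38.8%) and Saa1 in WT3 (30.8%). Orm1 led in every OE library with 37.8% to 38.4%, and Lcn2 led in every GFP library with 35.1% to 36.0%.

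Ordered by the median TPM of the groups, the levels of the 10 genes fell into several patterns, which are described without a test because the experiments with and without virus are separate. Saa1, Saa2, Saa3, Saa4, Orm2 and Crp were highest in KO, Orm1 and Apcs in OE, and Lcn2 and Orm3 in GFP. Crp had median TPM values of 632 in KO, 444 in WT, 15.1 in OE and 131 in GFP, and only KO and WT overlapped among neighbours in that order. Saa4 had medians of 616 in KO, 578 in WT, 168 in OE and 68.5 in GFP, again with overlap among neighbours only between KO and WT. The OE libraries, at 166 to 168, also lay inside the KO range of 133 to 788.

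Lcn2 had median TPM values of 382 in KO, 29.6 in WT, 1498 in OE and 2332 in GFP, and both virus groups lay above every library without virus. Apcs had medians of 77.2 in KO, 45.3 in WT, 286 in OE and 36.8 in GFP. Among neighbours in that order only KO and WT overlapped. The GFP libraries, at 36.0 to 37.5, also lay inside the KO range of 20.0 to 164. Orm1 had medians of 74.5 in KO, 875 in WT, 3158 in OE and 1141 in GFP, where GFP and WT overlapped and changed places when the 12 libraries were scaled together by the trimmed mean of M values. Under that scaling OE and GFP changed places for Saa2 and OE and KO for Orm3, and the order of the other 7 genes was the same. For Saa1, Saa2 and Saa3 the KO range, stretched by KO3, overlapped that of its neighbour in the order, which was GFP for Saa1 and OE for the other genes.

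Profiles over the 12 libraries were compared by the root mean square difference of log2(CPM + 1), each centred on its mean, among 12602 genes. The gene nearest to Saa1 was Tnfaip3, which encodes the NF-kB feedback enzyme A20, at 0.34, where Saa1 itself ranged over 5.26 on the log2 scale. The gene nearest to Saa2 was its relative Saa3, at 0.56, and the gene nearest to Saa3 was Tlr2, at 0.43. Crp was nearest to Gckr, the regulator of glucokinase, at 0.39, followed by Igf1 and Ftcd. Saa4 was nearest to Ang, Ugt1a1 and C3, at 0.53 to 0.57. Lcn2 had no close neighbour, with Hmox1, which encodes heme oxygenase 1, nearest at 1.39, and Orm1 was nearest to Cldn14 at 1.05. These measures describe the 12 libraries, of which the 3 of a group share their treatment.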

How the data were processed

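RNA-Seq was done on poly(A) RNA of 12 primary mouse hepatocyte libraries prepared with a stranded kit. Per the submitters' processing notes, the tools were Trimmomatic 0.36, STAR 2.5.1, Picard 1.84, RSEM 1.2.22 and DESeq2, with build mm10 and no role given for each. The deposited values used were the authors' RSEM expected counts (reads per gene estimated by RSEM, unscaled) and the authors' TPM, which are scaled for transcript length and sum to the same total in each library. Gene coordinates came from GENCODE M21, in which all 55450 identifiers were found.

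The 10 genes and the gene lists were chosen with earlier results of these data known. Expected counts were rounded, filtered with filterByExpr (minimum count 10, minimum total 15), scaled by the trimmed mean of M values (TMM) and tested with edgeR 4.0.16 (R 4.3.3), quasi-likelihood test, 2-sided, adjusting p after Benjamini and Hochberg across every gene in the fit. KO against WT and OE against GFP were fitted on their own 6 libraries, and the difference of effects on all 12. Calls were made below an adjusted p of 0.05. CPM is the TMM-scaled count within the 6 libraries of an experiment. Lists were described by counts and medians, with no set test. Genes named were the 10 genes, up to 4 of each list with the lowest p in each comparison and the 3 nearest profiles of each gene (mean of at least 1 CPM). Hp, Cebpb, Fga, Fgg, C3 and marker genes outside that rule were chosen after their values were seen. Alternatives were DESeq2 1.42.0, size factors of the DESeq2 type, scaling to library totals, dropping the filter, filtering more strictly (mean of 5 CPM or more, with 1 CPM reached by 3 libraries), limma 3.58.1 on TPM in log2 with a pseudocount of 1 or of 0.1 (mean TPM 1 or above), all 12 libraries in 1 fit, a replicate block, summed relatives (Saa1 with Saa2, and the 3 Orm genes) and each library left out in turn. The fits were tested on simulated data. No replicate pair agreed within sampling noise, so no library was counted as a duplicate, and none was left out. Counts cover sampling of reads only, which are not independent molecules.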

Additional observations from a re-analysis of the deposited data

Results flagged for a closer look

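The response to added Cebpa differed from the response to its deletion in 4 of the 10 genes, by edgeR's test of the difference of the log2 fold changes (OE against GFP less KO against WT, Benjamini-Hochberg adjustment over all genes). The same test called 54.1% of all genes, a larger share. Opposite responses to addition and deletion, as for Orm1, themselves give a difference away from 0. The difference was -3.74 for Crp, which was lower in OE than in GFP in 3 of 3 libraries against every GFP library. It was 4.52 for Orm1, which was higher in 3 of 3 OE libraries than in any GFP library and lower in 3 of 3 KO libraries than in any WT library. It was -4.46 for Saa3 and -4.13 for Saa2, for both of which KO1 and KO2 were above all WT libraries and KO3 was within the WT range. The edgeR adjusted p was 4.10e-06 for Crp, 0.00175 for Orm1, 0.0290 for Saa3 and 0.0460 for Saa2. The call was lost under 9 of 21 alternatives for Saa3, 15 of 21 for Saa2, 1 of 21 for Orm1 (relatives summed) and 0 of 21 for Crp.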

How the results depend on the processing

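Of the values for single genes under the alternatives, 150 of 158 in KO against WT and 148 of 159 in OE against GFP kept their direction and their side of the threshold. For the difference of effects 157 of 208 did. Genes called in KO against WT were 0 of the 10, but 1 with DESeq2, 2 with all 12 libraries in 1 fit and 0 to 2 with a library left out (2 without KO3). In OE against GFP they were 10, but 2 with all 12 libraries. For the difference they were 4, but 2 with relatives summed and 2 to 9 with a library left out (2 without WT1, WT2, OE1, OE2 or OE3, 9 without KO3). The share of all genes called for the difference under these alternatives is not given here. The cause of these changes in the counts was not tested.

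Over all genes, 203 were called in KO against WT, but 623 with DESeq2, 1205 with all 12 libraries, 324 with no filter, 91 with the stricter filter, 112 and 103 with limma on log2(TPM + 1) and log2(TPM + 0.1), and 42 to 396 with a library left out. Deviations of same-numbered libraries from their group means correlated at 0.0273, -0.0536 and -0.420 in KO and WT and at -0.0315, 0.0467 and -0.0886 in OE and GFP. Same-numbered libraries thus did not deviate together. Deviations from a mean of 3 libraries cannot decide whether the replicate numbers pair the samples. With a replicate block, 87 genes in all were called in KO against WT and 2 of the 10 genes for the difference, where Saa3 (-4.44) and Saa2 (-5.04) did not pass.

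Signs turned in these cases, as log2 values. In KO against WT, Orm2 was -0.87 with relatives summed, and Orm3 was 0.36 without WT3 and 0.41 without KO3 (-0.62 to 0.41 with a library left out). In OE against GFP, Saa2 was 0.0707 and 0.0708 with limma on log2(TPM + 1) and log2(TPM + 0.1) and Orm3 was 1.10 with relatives summed. For the difference, Orm2 was 0.0512 and 0.10 with limma, 2.00 with relatives summed, 0.18 without WT1, 0.18 without WT2 and 0.31 without KO1 (-3.78 to 0.31 with a library left out), and Orm3 was 0.43 with limma on log2(TPM + 0.1) and 2.00 with relatives summed. Scaling moved the median of all genes in OE against GFP to 0.27 in TPM and 0.15 with library totals, so that Saa2 lay below the median there too, and the share of calls that were higher was 63.4% with limma, against 50.7% with edgeR. In KO against WT it was 28.6% with limma, against 40.4% with edgeR, and for the difference 66.7% with limma, against 47.9%. Depth limits Orm3, with 1 to 59 counts in KO and WT.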
